A study of Mus musculus with 12 samples.

Results

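Undifferentiated mouse embryonic stem (ES) cells were set against a universal mouse reference RNA on each of 12 oligonucleotide arrays of 2 colours. All 12 arrays of the series enter, and on each the members are the gene probes, 20280 of 21446 spots, after 1166 control and retired spots were set aside. RNA of an ES line carried the dye Cy3 and the reference RNA carried Cy5, so each value below compares both dyes of an array, as log2 of line over reference, and a value of 1 is a 2-fold excess in the line. Spots saturated in either dye were left out, and 20132 probes kept a usable spot in every line. There were 4 lines with 3 arrays each. EB5 is a wild-type derivative of the E14tg2a line. RKPG9 is a Rex1+/- clone in which a pacEGFP cassette, a fusion of a puromycin-resistance gene with green fluorescent protein, took the place of the beginning of the Rex1 coding sequence. HP3 and HP4 are Rex1-/- lines that arose from RKPG9 under high-dose puromycin by gene conversion. All 4 lines were grown without feeder cells in serum with leukemia inhibitory factor (LIF), and each mutant line is a clone. The reference was RNA of 11 cultured mouse cell lines, pooled in equal parts, that came from embryo, embryo fibroblast, kidney, liver, alveolar macrophage, B and T lymphocyte, mammary gland, myoblast, skin and testis. No untreated or differentiated sample of the same lines was hybridized, and the reference serves as the common denominator.

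ES cells keep the pluripotent state of the early epiblast through transcription factors such as Oct3/4 (the product of Pou5f1), Sox2 and Nanog, and LIF acts on them through Jak kinases and Stat3. They are known for a short cell cycle with little dependence on D-type cyclins, for epithelial contacts made by E-cadherin, and for low levels of class I antigen presentation. Cultured fibroblasts, macrophages and lymphocytes, which contributed to the pool, are known by contrast for extracellular matrix, stress fibres, lysosomal enzymes and surface receptors of immune cells.

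Spots of the EB5 arrays were extracted in 1 session, in which the software's global background adjustment was on, and those of RKPG9, HP3 and HP4 in another, in which it was off. What sets EB5 apart from the other lines therefore cannot be told apart from the session. The share of probes well above background ran from 85.3 to 94.45% in Cy3 and from 92.22 to 99.23% in Cy5, lowest in HP4 and highest in EB5 in Cy3. The dyes were not swapped, so a dye effect of a probe and a difference between ES cells and reference cannot be told apart. The reference was a single RNA on all arrays, and its own spread is therefore not in any test. Whether the 3 arrays of a line used separate cultures is not stated in the labels, and the p-values then reflect only array-to-array spread, which may be technical. For a gene made by only some cells of the pool, fewer such cells and less RNA per cell cannot be told apart. The normalization centred each array, so a ratio is relative to the typical probe of like brightness.

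Against the reference, 885 probes were high in all 4 lines, 4.40% of those tested, and 905 were low in all 4, 4.50%. A probe was called where its mean over the arrays of a line passed a Benjamini-Hochberg adjusted p under 0.05 in limma and a 2-fold difference. In single lines, 1240 probes were high in EB5 (6.16%), 1345 for RKPG9 (6.68%), 1393 for HP3 (6.92%) and 1204 for HP4 (5.98%), while 1020 were low in EB5 (5.07%), 1426 for RKPG9 (7.08%), 1361 for HP3 (6.76%) and 1230 for HP4 (6.11%). Another 1568 probes were called in some lines only, and 0 were called high in a line and low in another. Of the probes high in all lines, 518 carried a current gene symbol, and of those low in all lines, 601 did. With median centring in place of loess, 396 of the 885 high and 896 of the 905 low probes were still called, and 769 were high and 1568 low in all 4 lines, so high calls were 32.9% of calls against 49.4% here. The ratio exceeded 4-fold in every line for 169 high and 207 low probes, and 16-fold for 16 high and 5 low probes. Gene lists are read at the brightest probe of each gene, and over all 6483 named genes read that way 6.62% were high and 8.42% low in all 4 lines, with a median log2 ratio of -0.06. In what follows a gene counts as high or low only where it was called so in all 4 lines. With no normalization the median of all probes itself moved to -1.13, and the list medians that lie between 0 and 1 here turned negative. Without background subtraction 306 probes were high and 297 low in all 4 lines, and the counts of most lists fell. Where the probe read for a gene was not well above background on all 12 arrays, the number of arrays on which it was is given, since the others give only a bound. Where a dye was above background on no array of a line, it was taken no lower than the dimmest spot that was. For Ccl2, Hprt, Hoxa10 and Jak2 in HP4 this left the estimate unchanged, so the value given is the estimate itself. Their Cy3 signal was well above background on no HP4 array, so these values are uncertain and at best bounds. Bounds for other dim probes may also equal the estimate.

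**Figure D1:**
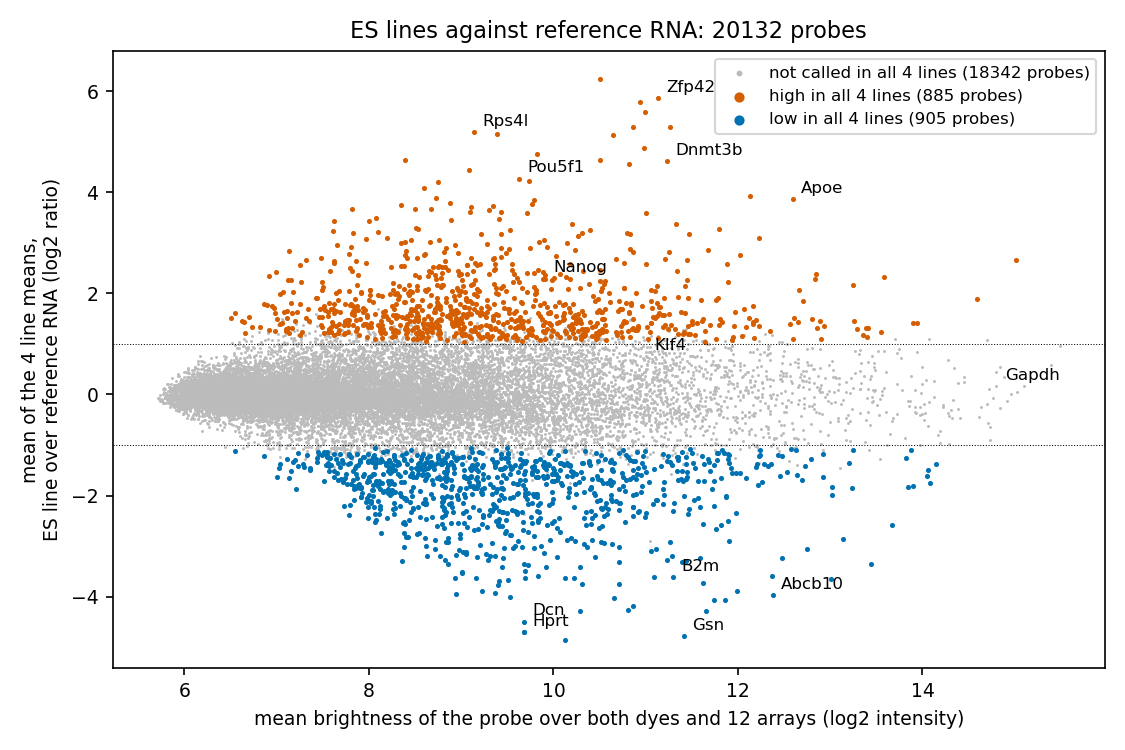
Mean of the 4 line means of the log2 ratio of ES line to reference RNA (vertical axis) against the mean brightness of the probe in log2 intensity (horizontal axis), with 1 point for each of 20132 probes. The 885 probes high in all 4 lines (orange) and the 905 low in all 4 (blue) lie at all but the dimmest intensities, with Zfp42 at 5.86 and Gsn at -4.79.

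Zfp42, the gene that encodes Rex1 and the target of the knockout, had the highest ratio of all named genes. Its log2 ratio was 5.96, 5.98 and 5.99 for EB5, 6.06, 6.01 and 6.03 for RKPG9, 6.12, 5.94 and 5.91 for HP3 and 5.66, 5.42 and 5.24 for HP4. The mean of the lines was 5.86, which is 58.2-fold over the reference, and the largest standard error of a line mean was 0.06. Every Rex1-/- array lay within 1 log2 unit of the wild-type arrays, and HP4 was lowest without overlapping the other lines. That place of HP4 was not particular to Zfp42. By line means HP4 was also lowest for Sall4, Tdh, Rps4l and Mycn, though not for Trh, Car2 or Dnmt3b. Median Cy3 brightness was 481 to 487 on the HP4 arrays and 520 to 577 on the others. Whether this bears on the order of the lines was not tested. A further probe that the files describe only as similar to Zfp42, A_65_P04151, had a mean of 5.78. The sources used here do not place either probe along the transcript, and the targeted allele keeps the rest of the gene, so these ratios do not check the genotypes. The Zfp42 promoter is shown with those of Pou5f1, another high gene, and of B2m and Anxa1, both low genes described further on, to set side by side the start regions of genes at both ends of the scale. Each window holds 300 bases around the annotated start in RefSeq for build GRCm38.p6, written in the direction of the gene. Capitals mark every match to any of 5 motifs, read on both strands. The TATA box was searched as TATAAA. The promoter element CCAAT was searched under its own name. The GC box, known as a site for Sp factors, was searched as GGGCGG. The E-box was searched as CACGTG. The octamer, the sequence that Oct proteins bind, was searched as ATGCAAAT.
Zfp42, chr8:43306960-43307259, minus strand: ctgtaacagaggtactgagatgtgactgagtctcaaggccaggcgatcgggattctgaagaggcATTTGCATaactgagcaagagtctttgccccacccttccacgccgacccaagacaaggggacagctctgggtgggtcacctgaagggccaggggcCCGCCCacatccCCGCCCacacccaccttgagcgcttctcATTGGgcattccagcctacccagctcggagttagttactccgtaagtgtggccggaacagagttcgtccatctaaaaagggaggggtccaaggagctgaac
Pou5f1, chr17:35505782-35506081, plus strand, the first of 2 windows listed: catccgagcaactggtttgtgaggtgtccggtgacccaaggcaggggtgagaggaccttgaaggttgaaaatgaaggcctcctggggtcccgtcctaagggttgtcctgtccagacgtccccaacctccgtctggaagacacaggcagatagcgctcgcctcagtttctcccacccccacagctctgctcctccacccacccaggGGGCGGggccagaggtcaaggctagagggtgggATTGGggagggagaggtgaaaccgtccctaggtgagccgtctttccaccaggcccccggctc
B2m, chr2:122147437-122147736, plus strand: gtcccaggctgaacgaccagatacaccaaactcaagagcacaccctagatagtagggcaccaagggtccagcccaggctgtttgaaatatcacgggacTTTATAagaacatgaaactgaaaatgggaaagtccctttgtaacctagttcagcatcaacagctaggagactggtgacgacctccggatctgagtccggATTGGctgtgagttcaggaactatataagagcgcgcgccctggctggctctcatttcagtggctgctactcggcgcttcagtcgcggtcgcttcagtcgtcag
Anxa1, chr19:20390622-20390921, minus strand: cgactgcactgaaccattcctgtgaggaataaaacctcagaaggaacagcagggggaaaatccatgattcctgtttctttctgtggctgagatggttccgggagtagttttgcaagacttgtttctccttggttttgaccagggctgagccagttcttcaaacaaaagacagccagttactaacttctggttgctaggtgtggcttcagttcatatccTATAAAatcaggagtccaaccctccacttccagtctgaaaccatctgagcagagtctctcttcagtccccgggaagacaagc
The window of Zfp42 held, all on the other strand, an octamer at -186 from the start, GC boxes at -91 and -79 and a CCAAT box at -51. That of Pou5f1 held a GC box on the gene strand at -45 and a CCAAT box on the other strand at -12. B2m had a TATA box at -152 and a CCAAT box at -53, both on the other strand, and Anxa1 a TATA box on the gene strand at -32. The window of Nanog, the first of 2 listed, held none of the motifs and is not shown. Over all 27025 promoter windows of the table, 1.75% held the octamer, 14.16% the TATA box, 37.92% the CCAAT box, 35.91% the GC box and 7.24% the E-box. Among the 5205 measured genes with a window the shares were 1.31%, 7.28%, 39.21%, 65.28% and 10.82%, in the same order. These matches describe letters in the windows and say nothing on whether a factor binds there. Only 79.95% of the high and 78.57% of the low genes had a window, so promoter features were not compared between these sets.

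The core pluripotency regulators stood far above the pool in all 4 lines. Pou5f1, which encodes Oct3/4, read 4.12 on the only usable EB5 spot, 4.43, 4.43 and 4.44 for RKPG9, 4.62, 4.44 and 4.21 for HP3 and 4.19, 4.18 and 3.99 for HP4, 19.3-fold over the reference at the mean. Nanog, a homeodomain factor of the same circuit, read 2.26, 2.00 and 1.97 for EB5, 2.46, 2.42 and 2.49 for RKPG9, 2.36, 2.51 and 2.43 for HP3 and 2.28, 2.16 and 2.15 for HP4, 4.89-fold over the reference. Arrays of some lines overlapped for both genes, and the adjusted p in limma was at most 1.95e-12 for Pou5f1 in RKPG9, HP3 and HP4 and 1.69e-12 for Nanog in any line. For Pou5f1 in EB5 the adjusted p in limma was 1.52e-10, but with 1 spot it borrows its spread wholly from the other lines. Sall4, a zinc-finger partner of Oct3/4, had a mean of 5.29 and all 12 arrays between 4.85 and 5.45. Its other probes gave 1.84, which was called high, and -0.40 and -0.01, which were not called, so the gene is high at some of its probes only. Tdh, the threonine dehydrogenase that feeds 1-carbon metabolism in mouse ES cells, had a mean of 5.29, and the transcription factor Mycn a mean of 4.77. No named probe was present for Sox2.

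Of 30 measured pluripotency genes, 24 were high (80%), 0 were low, and the list median was 2.69. Among transcription factors, Klf2 had a mean log2 ratio of 3.93, Otx2 3.67, Esrrb 3.26, Rest 2.06, Klf5 1.86, Sox15 1.77 and Utf1 1.72. The developmental pluripotency genes Dppa3 (Stella), Dppa4 and Dppa2 had means of 4.20, 3.85 and 1.91. Tcl1, a coactivator of Akt, had 4.22, Cdh1, which encodes E-cadherin, 3.65, the F-box gene Fbxo15 3.62, and Gdf3, a ligand of the TGF-beta family, 2.79. A dimmer Esrrb probe read 0.43 and was not called. The 6 genes that were not called in all lines were Epcam at 1.22, Nr5a2 at 1.15, Mybl2 at 1.10 with a dimmer probe at 1.78 that was called, Klf4 at 0.76, Gbx2 at 0.28 and Fgf4 at -0.01. Klf4 is a reprogramming factor that is also made by fibroblasts and epithelia, and it read 0.96, 1.02 and 1.04 for EB5, 0.63, 0.73 and 0.79 for RKPG9, 0.94, 0.92 and 0.91 for HP3 and 0.32, 0.42 and 0.39 for HP4, so only EB5 passed 2-fold. As a check of the label, 6 of the 7 defining ES cell markers that were measured were high in all lines, the exception being Fgf4.

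**Figure D2:**
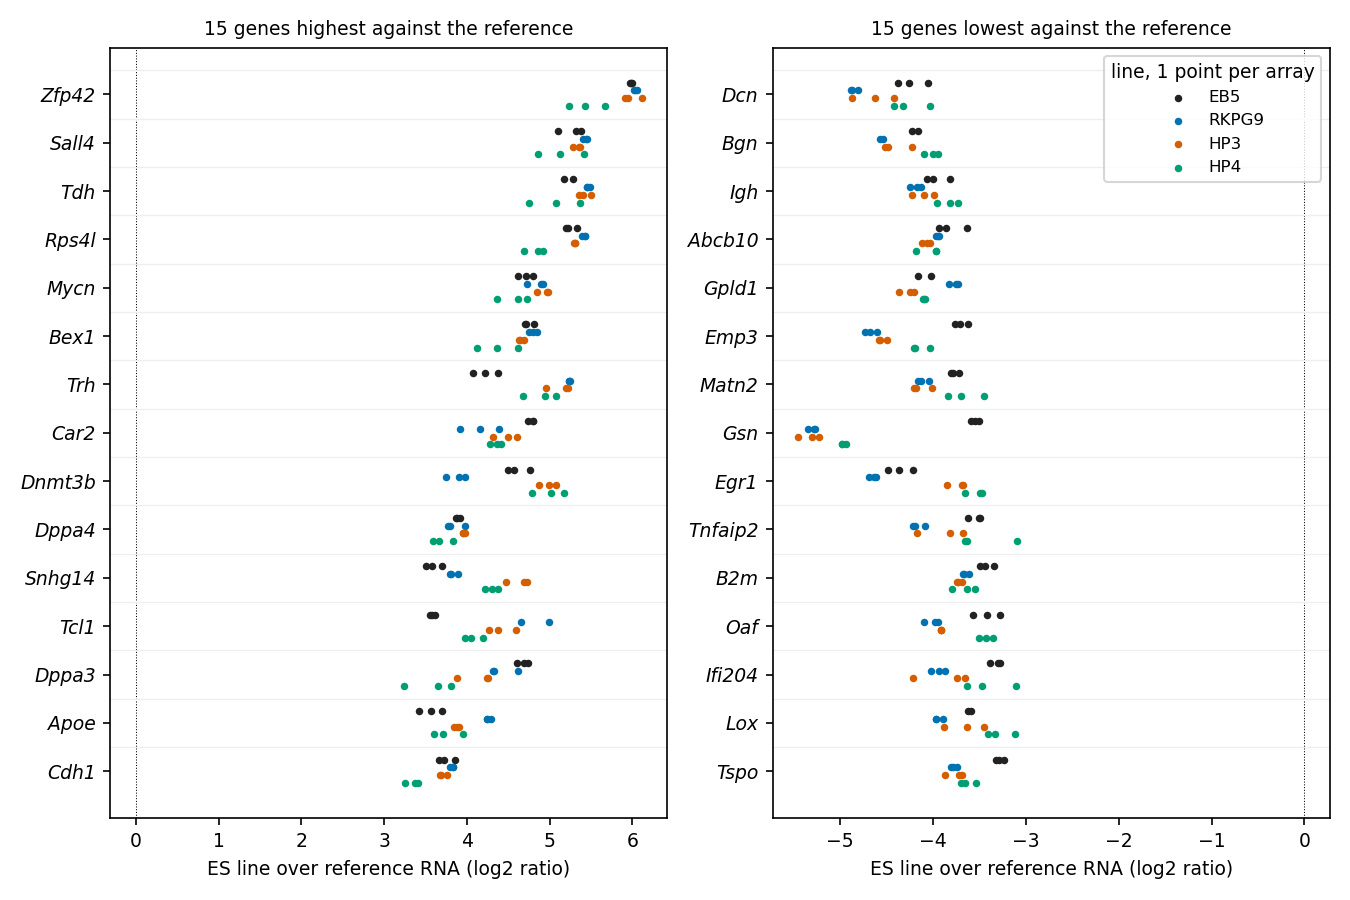
Log2 ratio of ES line to reference RNA (horizontal axis) on each array, coloured by line, for the 15 named genes farthest above the reference (left) and the 15 farthest below it (right), all at least 2-fold away in every line. Zfp42 lies between 5.24 and 6.12 on all 12 arrays, Gsn lies near -3.5 for EB5 and between -5.45 and -4.94 in the other lines.

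Other genes at the top of the scale belong to several classes. Rps4l, annotated as a ribosomal protein S4-like gene, had a mean of 5.20 and arrays between 4.69 and 5.43, 36.7-fold over the reference, whereas its near copy Rps4x was saturated in Cy5 on every array. The 25 other cytosolic ribosomal protein genes that were measured were not called in all lines, and the median of the list was 0.06. Probes of Rps23, Rps20, Rpl8, Rps6 and others were likewise saturated in Cy5 on every array and left out. The list therefore lacks many of the brightest ribosomal protein probes. Bex1, an X-linked gene known from the brain, had 4.64 and, at its second probe, 4.55. Trh, the precursor of thyrotropin-releasing hormone, had 4.87, and Car2, a carbonic anhydrase, 4.44. Snhg14, a long noncoding RNA that hosts imprinted small nucleolar RNAs, had 4.09 but 0.91 at a dimmer probe. Apoe, the apolipoprotein, had 3.86, the only gene of 10 measured liver genes that was high. The highest ratio on the arrays, 6.25, belonged to probe A_65_P19680, which carries no gene symbol.

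DNA methylation and polycomb genes were mostly uncalled, and more were high than low. The high shares were 30% and 27.27%, against 6.62% of all named genes. The low shares were 10% and 4.55%, against 8.42%. Dnmt3b, a de novo DNA methyltransferase, read 4.57, 4.50 and 4.76 for EB5, 3.75, 3.91 and 3.98 for RKPG9, 5.07, 4.99 and 4.87 for HP3 and 5.18, 5.01 and 4.79 for HP4, 24.5-fold over the reference at the mean. RKPG9 was lowest for Dnmt3b with no overlap, and its second probe was also high at 3.77. Dnmt3l, the cofactor of the de novo enzymes, had 3.20, and Hells, a chromatin remodeller needed for methylation, 2.24, with a dimmer probe at 1.37 that was not called in all lines. The maintenance enzyme Dnmt1 had 0.39 and the other de novo enzyme Dnmt3a -0.44, neither of them called, and the methyl-binding protein Mbd2 was low at -1.96. In all, 3 of 10 genes of this list were high and 1 was low. Of 22 polycomb components 6 were high and 1 low. The high ones were the chromobox protein Cbx7 at 3.19, the complex 2 accessory proteins Jarid2 at 3.01 and Mtf2 at 2.97, the polyhomeotic protein Phc1 at 2.58, the core subunit Eed at 2.27 and the Ring1-binding protein Rybp at 1.81. Dimmer probes of Phc1 and Rybp, at 0.50 and 1.12, were not called in all lines. The low one was Bmi1, a subunit of complex 1 known from somatic stem cells, at -1.73, and among uncalled members Ezh2 had 0.80, Suz12 0.70 and Yy1, the nearest relative of Rex1, 0.13.

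Of the receptor-proximal kinases of the LIF pathway, Jak1 was lower in ES cells than in the pool. It read between -2.33 and -2.01 on all 12 arrays with a mean of -2.18. Jak2 was also called low, but its Cy3 signal was well above background on only 5 of 12 arrays. None of these was of HP4, where the estimate was 3.51-fold lower. A dimmer Jak2 probe was not called, and was not above background in Cy3 on any array (0). Id2, a target of BMP signals, was low at -1.38. None of the 18 measured genes of this list was high (0), 3 were low, and the median was -0.33, and with median centring 5 were low and without background subtraction 1. The receptor chain Il6st had -0.61 and the transcription factor Stat3 -0.45, neither of them called, and the other receptor chain, Lifr, was not called and was well above background in Cy3 on 4 of 12 arrays.

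Most cell cycle genes were not called, and the calls leaned high in the replication list and low among D cyclins and inhibitors. Of 38 genes of DNA replication and the cell cycle, 7 were high, 0 low and 31 neither, with a median of 0.59. The high share was 18.42%, against 6.62% of all named genes. With median centring 3 were high, without background subtraction 2, and 4 by limma's test against the 2-fold threshold itself. Ccne1, which encodes cyclin E1, had 2.23 with all arrays between 2.06 and 2.37. The Cdk-activating phosphatase Cdc25a had 1.87 but 0.0066, uncalled, at its dimmer probe, the origin recognition subunits Orc1 and Orc2 had 1.70 and 1.11, the helicase subunit Mcm3 had 1.31, its loader Cdc6 1.28 and the mitotic cyclin Ccnb1 1.16. In contrast, of 14 D cyclins and cell cycle inhibitors 5 were low, 1 was high and 8 were neither. The low share was 35.71%, against 8.42% of all named genes. Without background subtraction 1 was low and 0 were high. Ccnd2, a D-type cyclin, had -3.76 and was 13.6-fold lower than the reference, with further probes at -2.44 and -1.37 that were also low and a dim one at -0.10. The Cdk inhibitors Cdkn2c, Cdkn1a and Cdkn2d had -2.22, -1.53 and -1.47, Cdkn2c with Cy3 well above background on 8 of 12 arrays, and the pocket protein Rbl1 had -1.31. The exception was Cdkn1c, an imprinted Cdk inhibitor, at 2.50. Ccnd3, the other D cyclin measured, had 0.34 and was not called.

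Extracellular matrix and fibroblast genes formed the lowest list. Of 36 measured, 26 were low (72.22%) and 0 high, with a median of -2.14. Dcn, which encodes the collagen-binding proteoglycan decorin, read -4.26, -4.05 and -4.38 for EB5, -4.87, -4.81 and -4.88 for RKPG9, -4.42, -4.88 and -4.62 for HP3 and -4.04, -4.32 and -4.42 for HP4, 22.6-fold lower in ES cells. Its relative biglycan, Bgn, had -4.29, and the collagen cross-linking enzyme Lox had -3.62 and -3.63 at its probes. The hyaluronan receptor Cd44 had -3.42, the collagen gene Col1a2 -2.74, the growth factor receptors Pdgfra and Pdgfrb -2.75 and -2.37, and fibronectin, Fn1, -1.83. Fn1 had a further bright probe at -0.32 and a dim one at -0.87, and Cd44 a dim one at -0.22, none of them called. Mmp2, Twist1 and Igfbp5 had -0.87, -0.67 and -0.49 and were not called. The lowest probe of all, A_65_P01875 at -4.86, is described in the files as caveolin, a coat protein of membrane invaginations. Vim, the intermediate filament of mesenchymal cells, was saturated in Cy5 on every array, which leaves a bound: it was at least 11.6-fold lower in EB5, 33.0-fold in RKPG9, 23.8-fold in HP3 and 18.3-fold in HP4 than in the reference. Bounds of the same kind put S100a6, a calcium-binding protein, at least 8.13-fold, the secreted phosphoprotein Spp1 at least 6.76-fold, the ferritin heavy chain Fth1 at least 5.19-fold and Aurkaip1 at least 2.67-fold lower in every line. A bound takes the saturated spots at their value after normalization.

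Genes of the actin cytoskeleton were low in part. Gsn, the actin-severing protein gelsolin, read -3.55, -3.51 and -3.59 for EB5, -5.29, -5.27 and -5.35 for RKPG9, -5.30, -5.23 and -5.45 for HP3 and -4.94, -4.99 and -4.99 for HP4. It was 27.6-fold lower than the reference at the mean, and EB5 was nearest to the reference without overlap. The smooth muscle actin Acta2 had -2.83, the LIM protein Fhl2 -2.94, the tropomyosin Tpm2 -1.62 and the focal adhesion protein Zyx -1.41. Of 19 measured genes of this list, 6 were low and 1, Csrp2 at 1.38, was high, with a median of -0.78. Without EB5, 9 were low.

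**Figure D3:**
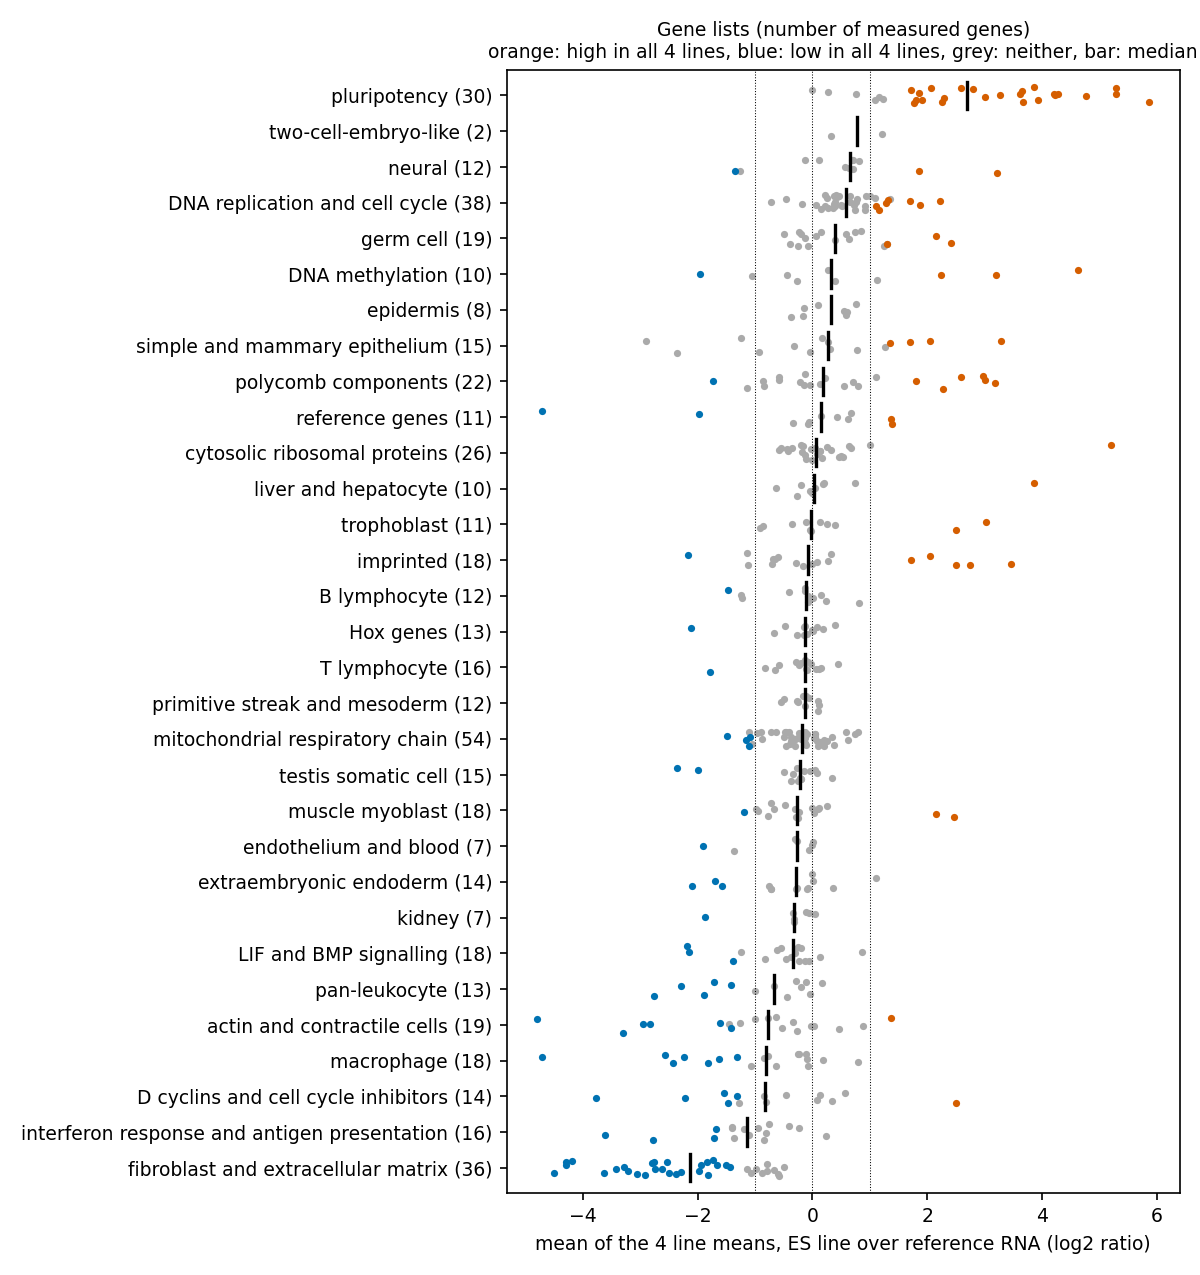
Mean of the 4 line means of the log2 ratio of ES line to reference RNA (horizontal axis) for every measured gene of each list, with 1 point per gene and a bar at the list median, ordered by median. The pluripotency list has the highest median, 2.69, and the fibroblast and extracellular matrix list the lowest, -2.14, while most other medians lie within 1 of 0.

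Immune genes were low mostly in the macrophage and pan-leukocyte lists. Of 18 macrophage genes 7 were low and 0 high. The chemokine Ccl2 had -4.71, with Cy3 well above background on 9 of 12 arrays. None of these was of HP4, where its estimate was 22.4-fold lower. The protease Ctsb had -2.57, lysozyme, Lyz2, -2.42 with a dimmer probe at -0.59, and the colony-stimulating factor receptor Csf1r -2.24. Plek had -1.82 with Cy3 well above background on 9 of 12 arrays, the oxidase subunit Cyba -1.63 and the lineage factor Spi1 -1.30. Of 13 pan-leukocyte genes 5 were low, among them the tetraspanin Cd53 at -2.76, the actin bundler Lcp1 at -2.30 and Ptprc, which encodes CD45, at -1.89 with Cy3 well above background on 10 of 12 arrays. Without background subtraction, 3 macrophage and 2 pan-leukocyte genes were low. Of 12 B lymphocyte genes 1 was low (8.33%), Blnk, an adaptor of the B cell receptor, with Cy3 well above background on 5 of 12 arrays, and of 16 T lymphocyte genes 1 (6.25%), the transcription factor Gata3 at -1.78. Both shares are close to the 8.42% of all named genes. The immunoglobulin mu constant region, Igh, was among the lowest genes at -4.02, 16.2-fold lower, while a dim second probe read -0.37.

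B2m, the light chain of class I antigen-presenting molecules, was evenly low. It read -3.45, -3.34 and -3.49 for EB5, -3.67, -3.61 and -3.67 for RKPG9, -3.69, -3.74 and -3.74 for HP3 and -3.55, -3.63 and -3.79 for HP4, 12.2-fold lower than the reference. The immunoproteasome subunit Psmb8 had -2.78, the peptide transporter Tap1 -1.71 and the ubiquitin-like Isg15 -1.68 with Cy3 well above background on 7 of 12 arrays, so that 4 of 16 genes in the list on interferon response and antigen presentation were low and 0 high, with a median of -1.14. The low count was 10 with median centring, 7 without EB5, 6 with a normexp offset of 0 and 2 without background subtraction. The interferon-inducible Ifi204, outside that list, had -3.64 and -2.20 at its probes. Other genes at the bottom of the scale were the membrane protein Emp3 at -4.27, the immediate-early transcription factor Egr1 at -4.07, the phospholipase Gpld1 at -4.06, the mitochondrial transporter Abcb10 at -3.97, the matrix filament protein Matn2 at -3.92, the tumour necrosis factor-induced Tnfaip2 at -3.77, Oaf at -3.69 and the cholesterol-binding mitochondrial protein Tspo at -3.61. Of these, Gpld1, Matn2 and Tnfaip2 had a dimmer probe that was not called, at -1.13, 0.38 and -0.51. Of the 10 low probes that were not well above background in Cy3 on any array, Evi2 was at least 8.02-fold lower in EB5, 10.2-fold in RKPG9, 8.83-fold in HP3 and 6.09-fold in HP4. Osmr, the receptor of the LIF relative oncostatin M, was at least 5.52-fold, 6.24-fold, 5.77-fold and 3.83-fold lower in the same lines.

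Marker genes of most other sources of the pool did not stand apart. None of the measured defining markers of liver (3), kidney (2), B lymphocyte (1), T lymphocyte (2), mammary gland (1), muscle myoblast (3) and testis (3) was called in all lines, while both measured fibroblast markers and all 3 macrophage markers were low. The liver marker Ttr was well above background on only 3 of 12 arrays in each dye, so its lack of a call says little. Cy3 was well above background on 1 array for Myog, 10 for Apoa1 and 11 for Des. Among longer lists, 15 of 18 muscle genes were uncalled. Ckb, the brain-type creatine kinase, at 2.46 and Mylpf, a myosin light chain, at 2.15 were high. Mef2c was low at -1.19 with Cy3 well above background on 8 of 12 arrays, and its dimmer probe at -0.30 was not called. Of 15 testis somatic genes, Akr1b7 was low at -2.37 with a dimmer, uncalled probe at 0.28, and Inhba, the activin subunit, was low at -2.00 with Cy3 well above background on 6 of 12 arrays. The kidney list had 1 low of 7, Aqp1, a water channel, at -1.86, and endothelium and blood 1 low of 7, Cd34 at -1.91. Each share of 14.29% rests on 1 gene, and of all named genes 8.42% were low. Simple epithelium had 4 high of 15 and 0 low, and without EB5 4 high and 3 low, the latter being the keratins Krt8 at -2.89, Krt18 at -2.36 and Krt7 at -1.25 over the 4 lines. Of the high ones, Cldn4 at 3.28 and Cldn3 at 1.34 encode claudins of tight junctions, Cdh3 at 2.04 a cadherin, and Spint1 at 1.69 a protease inhibitor. None of 8 epidermis genes was called in all lines (0), and no pigment cell gene was measured.

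Lists of lineages that ES cells give rise to lay on both sides of the median of all named genes, -0.06. The median was -0.28 in extraembryonic endoderm, -0.14 in primitive streak and mesoderm and -0.02 in trophoblast. It was 0.40 in the germ cell list and 0.66 in the neural list of 12 genes. High shares were 15.79% for germ cell, 18.18% for trophoblast, 16.67% for neural and 27.78% for imprinted genes, against 6.62% of all named genes. The low share of extraembryonic endoderm was 21.43%, against 8.42%. Apart from the imprinted list, each of these shares rests on 2 or 3 genes. No gene of 12 in primitive streak and mesoderm was called, and their ratios ran from -0.54 to 0.11. Gata6, a factor of extraembryonic endoderm, read -1.70 at its brighter probe and 0.10, uncalled, at a dim one, and the basement membrane collagens Col4a1 and Col4a2 had -1.57 and -2.09, while Sox17 had -0.10. Gata4 and Foxa2 were not called, each with Cy3 well above background on 3 of 12 arrays. Of 11 trophoblast genes, Tfap2c at 3.01, with a dimmer probe at 1.49 that was not called in all lines, and Cdkn1c were high, whereas Cdx2, the trophectoderm regulator, had -0.87 and was not called. In the neural list the neurofilament Nefl at 3.21 and the tubulin-binding Stmn2 at 1.85, with a further probe at 1.17 that was not called in all lines, were high and Ina, another neurofilament, was low at -1.34. Of 13 Hox genes, only Hoxa10 was low (7.69%, near the 8.42% of all named genes) and 0 were high. Its Cy3 signal was well above background on 7 of 12 arrays, with means of -1.83 for EB5, -2.35 for RKPG9 and -2.31 for HP3. No HP4 array was among the 7, and there the estimate was 3.93-fold lower. Of 19 germ cell genes, the synaptonemal complex protein Sycp3, the homeobox gene Rhox6 at 2.16 and the RNA helicase Ddx4 at 1.31 were high, and without background subtraction 0 were. Sycp3 was well above background in Cy5, the reference, on 3 of 12 arrays, so it was at least 3.66-fold higher in RKPG9, 8.31-fold in HP3 and 3.77-fold in HP4. A dimmer Ddx4 probe read 0.72 and was not called. Of 18 imprinted genes 5 were high, the amino acid transporter Slc38a4 at 3.45, the noncoding RNA Meg3 at 2.75, Cdkn1c, Mest at 2.05 and Peg3 at 1.72, and 1 was low, Dlk1 at -2.17. Dimmer probes of Meg3 and Peg3, at 1.45 and 1.10, were not called in all lines.

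Genes often used to scale expression were not all level between ES cells and the pool. Gapdh, a glycolytic enzyme, read between 0.04 and 0.29 on all 12 arrays. Hprt, which salvages purine bases and which the parental line E14tg2a is known to lack, read -4.55, -4.44 and -4.59 for EB5, -4.79, -4.96 and -5.06 for RKPG9, -4.85, -5.05 and -4.91 for HP3 and -4.35, -4.44 and -4.48 for HP4, 26.1-fold lower than the reference at the mean. Its Cy3 signal was well above background on 9 of 12 arrays and on none of HP4, where the estimate was 21.5-fold lower. Tfrc, the transferrin receptor, and Ywhaz were high at 1.37 and 1.38, although the other Ywhaz probe, of like brightness, read -0.09, and dimmer Tfrc probes read 0.93 and 0.61, none of them called in all lines. Of 11 such genes, 2 were high and 2 low, and with median centring 0 were high. Respiratory chain genes lay close to the median of all probes, with 4 of 54 low and 0 high. That low share, 7.41%, is near the 8.42% of all named genes. The 4 were Uqcrh at -1.49, Ndufs5 at -1.16, Ndufb3 at -1.11 and Cox8a at -1.09. The low count was 8 with median centring, 6 without EB5 and 1 by limma's test against the 2-fold threshold itself.

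The ratio to the reference differed between the lines for 191 probes, 0.949% of those tested, by an F test in limma (adjusted p under 0.05 and line means more than 1 apart on the log2 scale). Of these, 49 were high and 34 low in all 4 lines. Over all tested probes the median distance between the highest and the lowest line mean was 0.21, and the median standard deviation within a line was 0.07. EB5 lay outside the other lines for 116 of the 191 probes, higher in 88 and lower in 28, and for 52 of these by more than the range of the other lines. RKPG9 was highest or lowest for 141, HP4 for 79 and HP3 for 46. Every probe has a highest and a lowest line, so part of each of these counts is fixed by construction. The count by more than the range of the others was made for EB5 only. The sessions named above move with what sets EB5 apart. Without EB5, 91 probes differed between the remaining lines. Several genes of the low lists were nearest to the pool in EB5. Anxa3, a phospholipid-binding annexin, read -2.66, -2.55 and -2.60 for EB5, -4.06, -4.02 and -4.06 for RKPG9, -5.37, -5.34 and -5.32 for HP3 and -5.02, -5.25 and -5.13 for HP4. Its relative Anxa1 read -3.01, -2.92 and -3.02 for EB5, -4.82, -4.86 and -4.88 for RKPG9, -4.66, -4.71 and -4.79 for HP3 and -3.91, -4.31 and -4.28 for HP4. Cald1, which encodes the actin-binding caldesmon, read -1.97, -1.89 and -1.93 for EB5 and between -3.87 and -3.69 on the other 9 arrays, while further Cald1 probes read -2.59, called low, and 0.07, uncalled. For all of these the EB5 arrays lay above every other array. The keratins Krt8 and Krt18, which pair in simple epithelia, had line means of -0.74 and -0.56 for EB5 against -3.42 and -3.08 for RKPG9, -3.88 and -3.16 for HP3 and -3.54 and -2.66 for HP4, so that they were low in all lines but EB5.

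Genes of the high side differed in other patterns. Rhox6 read 2.99, 2.90 and 2.97 for EB5, 2.71, 2.74 and 2.69 for RKPG9, 1.62, 1.89 and 1.85 for HP3 and 0.99, 1.28 and 1.27 for HP4. Mylpf had the same order, with line means of 2.99, 2.41, 1.75 and 1.45, and for both genes no line overlapped another. Rhox5, a neighbour of Rhox6 in the X-linked homeobox cluster, had 2.95 for EB5, 0.53 for RKPG9, 1.30 for HP3 and 0.40 for HP4. Tcstv1, known from a state of ES cells that resembles the cells of the cleaving embryo, had 1.96 for EB5, -0.20 for RKPG9, 2.06 for HP3 and 1.05 for HP4, so the heterozygous line stood apart from both the wild-type and the Rex1-/- lines. Imprinted genes moved in different directions, Meg3 from 2.19 for EB5 and 2.43 for RKPG9 to 3.32 for HP3 and 3.05 for HP4, and the growth factor Igf2 from 0.25 and -0.32 to -1.23 for HP3 and a bound of at least 2.16-fold lower for HP4, with Cy3 well above background on 7 of 12 arrays. A further Igf2 probe read -0.02. Mest was lowest in EB5 at 1.28 and had 2.56, 2.23 and 2.14 for RKPG9, HP3 and HP4. All of these genes passed the F test, with adjusted p in limma between 8.79e-11 and 4.97e-07.

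**Figure D4:**
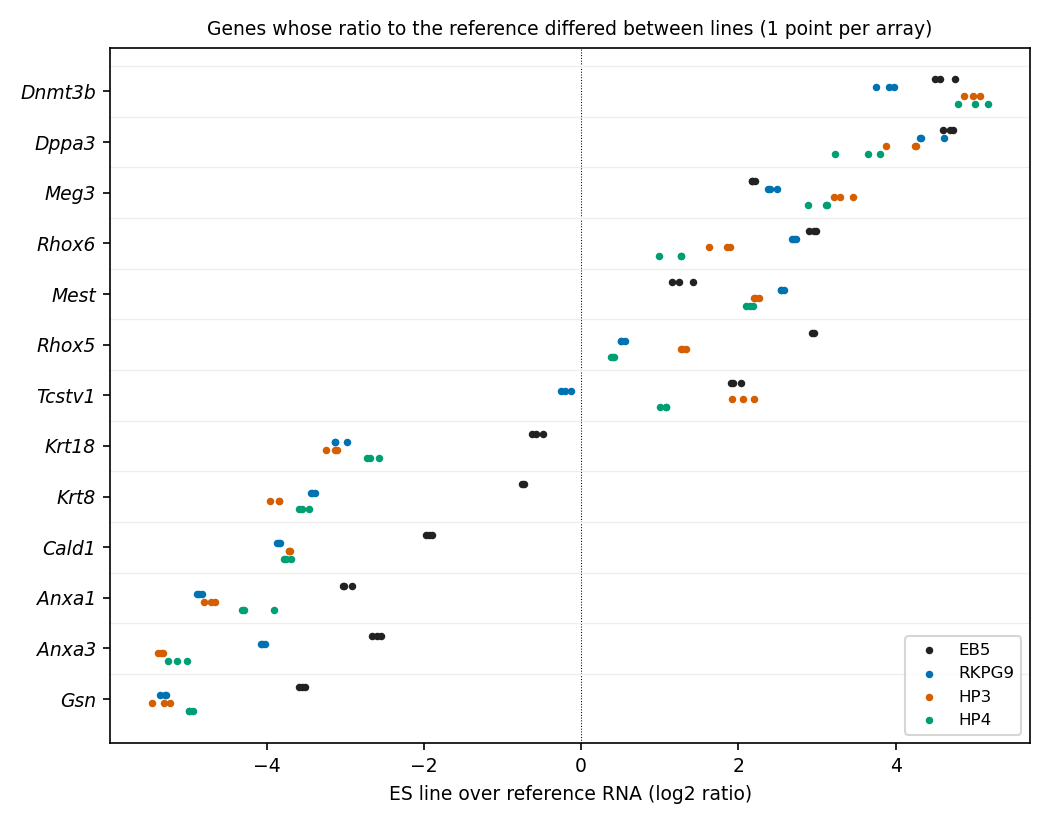
Log2 ratio of ES line to reference RNA (horizontal axis) on each array, coloured by line, for 13 genes whose ratio differed between the lines by the F test. EB5 is nearest to the reference for Krt8, Krt18, Cald1, Anxa1, Anxa3 and Gsn, and RKPG9 alone lies near 0 for Tcstv1, with a line mean of -0.20.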

How the data were processed

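RNA of 4 ES cell lines and the reference RNA were measured on 12 arrays (NIA Mouse 22K oligonucleotide arrays of Agilent). The deposited intensity of each spot, in each dye, is the mean brightness read by the authors with Agilent Feature Extraction 7.5.1, with nothing subtracted, beside the median of its local background. The deposited log10 table of the authors holds 1 level per probe and array, and was used only as an alternative. Its column medians lay between 2.87 and 2.88, and its values correlated with the Cy3 signal at 0.962 to 0.978, so a higher value stands for more RNA of the line, while its centring is not given in the sources used here. The paper analysed the arrays with the NIA Array Analysis Software.

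Background was removed from the mean signals by normexp (offset 50), followed by loess within each array, in which control, outlier and saturated spots had no weight. Outlier and saturated spots were then left out, and log2 of Cy3 over Cy5 was fitted with limma 3.58.1, in R 4.3.3 and with the package data.table at 1.17.8, with a mean per line over all 12 arrays, 8 residual and 3.42 prior degrees of freedom. Each line mean was tested against 0, and differences between lines by an F test, with Benjamini-Hochberg adjustment over 20132 probes. Tables and plots used Python 3.11.15, pandas 2.3.3, numpy 2.4.6 and matplotlib 3.10.9. The scripts were tested on simulated data.

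Of 20280 gene probes, 8411 were given a current symbol through a RefSeq table of GRCm38.p6 (4324 as in the files, 3942 updated from an older symbol, 143 from the description and 2 from an accession), 560 kept a symbol not in that table and 10695 had none. The named genes are, among probes called in all 4 lines with at least 2 usable spots per line and both dyes well above background, the 15 genes highest and the 15 lowest at the line mean nearest 0 and the 5 with the largest range between lines, and beside these, with no such filter, up to 5 called members of each gene list, Pou5f1, Nanog, Sox2, Zfp42, Klf4, Actb and Gapdh, and up to 10 saturated genes. Other genes that are named were chosen after their values were seen. Where a gene has several probes, the brightest is read in lists. The members and lists were chosen with earlier results of these data known. The replicate numbers of the labels were not used to pair the arrays in the main fit. Deviations of same-numbered arrays correlated at -0.165 to 0.196, with a median of 0.064. For differently numbered arrays the range was -0.236 to 0.177 and the median -0.014, so a weak pairing is not excluded. Alternatives were the processed signals, other background and normalization choices, spot and probe filters, the authors' table, other tests, a replicate block, and lines or arrays left out. No genome was used here, and some members of the gene lists are not reported here. The number of arrays limits the precision.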

Additional observations from a re-analysis of the deposited data

Results flagged for a closer look

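The 5 genes below had the widest distance between line means among genes called in all 4 lines. Both dyes were well above background, with at least 2 usable spots per line. All passed the F test in limma (8 residual degrees of freedom). They were picked by that distance, so their p-values give no separate support. They were Cald1 (adjusted p = 8.79e-11, line means 1.92 apart on the log2 scale), Anxa3 (adjusted p = 1.16e-10, 2.74 apart), Gsn (adjusted p = 1.59e-09, 1.78 apart), Rhox6 (adjusted p = 4.62e-08, 1.77 apart) and Anxa1 (adjusted p = 6.27e-08, 1.87 apart). For Cald1, Gsn, Anxa1 and Anxa3 the arrays of EB5 lay nearest to the reference, and the extraction session moves with EB5, so line and session cannot be told apart. For Rhox6 the lines of the same session also had separate means, 2.71 in RKPG9, 1.79 in HP3 and 1.18 in HP4.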

How the results depend on the processing

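With the processed signals, 1990 probes were high in EB5, 2525 in RKPG9, 2684 in HP3, 2984 in HP4 and 1561 in all 4 lines, 2583, 2754 and 3251 were low in RKPG9, HP3 and HP4 and 1361 in all 4, and 1857 differed between lines. With the authors' table the counts were 1891, 2516, 2731, 3003 and 1531 high, 1712, 2567, 2726, 3173 and 1376 low, and 1807 differing. With an offset of 0, 2089, 2294 and 2494 were high in RKPG9, HP3 and HP4 and 1363 in all 4, 1586, 2200, 2320 and 2757 were low in the lines and 1373 in all 4, and 947 differed. Without background subtraction they were 499, 576, 524, 359 and 306 high, 384, 550, 500, 346 and 297 low, and 69 differing. With median centring, 769 were high in all 4 lines, 396 of the 885 among them, 3009 were high in HP4, 1628, 2240, 2429 and 3579 were low in the lines and 1568 in all 4, and 615 differed. That put the high share of calls at 32.9% against 49.4%. With no normalization the median of all probes was -1.13, and 122, 181, 195, 57 and 57 were high, 12502, 10026, 9692, 13010 and 9175 low and 2343 differed. At 4-fold, 228, 282, 306 and 221 were high in the lines and 169 in all 4, 244, 399, 365 and 285 were low and 207 in all 4, and 12 differed. Without EB5, 982 probes were high and 1087 low in the other lines and 91 differed. Without HP4, chosen after seeing the data, 976 were high and 970 low. With the replicate block, 885 were high, 902 low and 188 differed. No probe called in all lines was called the other way under any setting (0). Leaving out each array in turn gave 873 to 896 high and 883 to 911 low in all lines and 188 to 198 differing. The log2 ratio of Gapdh turned to -0.36 with median centring, -1.50 with no normalization and -0.0523 with saturated spots kept, and with no normalization Klf4 turned to -0.96, Mcm3 to -0.37, Cdc6 to -0.29, Tfrc to -0.34 and Ywhaz to -0.23. The median of the pluripotency list stayed between 0.99 and 2.87 and that of the fibroblast and extracellular matrix list between -3.80 and -1.30. The cause of these shifts was not tested. Arrays on which a probe is not above background in a dye give only a bound, and few arrays and a single reference RNA limit the rest.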

Other observations

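Genes that share the start of their symbol were counted at the brightest probe, for starts with at least 10 measured genes, as a description with no test. Those named Polr, subunits of RNA polymerases, had 4 of 18 high and 0 low with a median log2 ratio of 0.63, and those named Ddx, RNA helicases, 5 of 25 high and 0 low with a median of 0.55. Translation initiation factors (Eif) had 3 of 28 high, 0 low and a median of 0.42, Klf factors 3 of 11 high, 0 low and 0.45, and proteins of the large mitochondrial ribosome subunit (Mrpl) 0 of 31 called and 0.29. On the other side, interleukins and their receptors (Il) had 7 of 25 low, 0 high and a median of -0.48, collagens and others named Col 6 of 17 low, 1 high and -0.77, Serpi genes, mostly protease inhibitors, 4 of 14 low, 1 high and -0.35, and surface antigens named Cd 7 of 35 low, 0 high and -0.19. Over all 6483 genes 6.62% were high and 8.42% low.

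Probes of a gene did not always give the same call. The genes high in all 4 lines at their brightest probe included 126 with further probes, and of these 158 further probes 136 had the same sign, 43 were also called high and 1 was called low. For 122 low genes, 129 of 148 further probes had the same sign, 30 were called low and 1 was called high.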
